A study of Homo sapiens with 32 samples.

Results

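CR1L, a gene of the complement regulator family, was followed across K-562 cells that had become resistant to imatinib or nilotinib. Array features were chosen by gene symbol from a list of 5 complement receptors and membrane inhibitors: CR1L, CR1, CD46, CD55 and CD59. Of these, 1 was present among the 14884 named genes, CR1L with 1 array feature, and CR1, CD46, CD55 and CD59 are not analysed here. CR1L came to attention because it was higher in resistant than in naive cells in these same arrays. Its levels against naive cells are therefore given as a description, with no test.

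K-562 is a human chronic myeloid leukemia line that grows in suspension and carries the BCR::ABL1 kinase fusion that both drugs inhibit. The study measured 32 arrays in 8 sets of 4. Treatment-naive cells gave 2 sets, whose titles carry the letters S and K. Cells adapted stepwise to 0.5 µM imatinib (low-imatinib lines 1 and 2), 2 µM imatinib (high-imatinib lines 1 and 2) or 0.1 µM nilotinib (nilotinib lines 1 and 2) gave 2 sets each. The growth text is the same for all samples and does not settle whether drug was present in the medium at harvest. The design text calls the lines of a resistance biological replicates and the 4 arrays of a set technical replicates. Nothing states that naive S and K, or the lines, came from separate starting cultures, and p-values measure only the spread between these sets.

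Complement is a cascade of serum proteins that marks cells with fragments of C3 and C4 and can end in a pore in the cell membrane. Cells defend themselves with surface proteins built from short repeats. CR1 (CD35) and CD55 break up the convertases that amplify the cascade, CD46 helps factor I to cut the bound fragments, and CD59, which belongs to a different protein family, blocks assembly of the pore. CR1L lies beside CR1 in the cluster of complement regulators on the long arm of chromosome 1 and resembles it in sequence; its mouse counterpart is the membrane inhibitor known as Crry. CR1, CD55 and CD59 are also carried by red blood cells, the lineage that K-562 cells partly resemble.

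The RefSeq promoter window of CR1L, from 250 bases before to 50 bases after the annotated start, is shown because CR1L was the member that was measured. It lies at chr1:207644883-207645182 on the plus strand of GRCh38.p14, and capitals mark matches to the motifs searched.
CR1L: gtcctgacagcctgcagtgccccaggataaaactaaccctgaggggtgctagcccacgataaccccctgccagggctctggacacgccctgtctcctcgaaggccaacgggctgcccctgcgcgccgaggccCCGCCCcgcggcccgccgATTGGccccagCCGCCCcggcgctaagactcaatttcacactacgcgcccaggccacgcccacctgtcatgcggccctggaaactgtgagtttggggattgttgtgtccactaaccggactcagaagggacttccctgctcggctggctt

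The window has a GC content of 65.7%. On the minus strand it holds 2 matches to the GC box (GGGCGG), beginning 118 and 89 bases before the start, and between them 1 match to the CCAAT motif, 100 bases before it. At least 1 GC box was found in 45.0% and a CCAAT motif in 34.6% of the 35116 promoter windows of the same length, searched on both strands. The window held no match for 6 other motifs. The motif of the GATA factors, spelled AGATAA in this search, was present in 10.3% of all windows. That of the STAT factors, spelled TTCNNNGAA, was present in 7.66% of them. The E-box bound by MYC and related factors, spelled CACGTG, was found in 7.26% of windows. The TATA box of core promoters, spelled TATAAA, was found in 11.5% of windows. For the ETS family the letters were CCGGAA, which occurred in 17.2% of windows. For AP-1 the letters were TGANTCA, which occurred in 7.71% of windows. A match is a description of the sequence only.

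CR1L was measured as a log2 summarised intensity in every array, and the naive arrays read lowest. The CR1L value rests on 1 array feature. CR1 resembles CR1L in sequence, and whether transcripts of CR1 also bind this feature was not tested, since probe sequences were not used here. The 4 arrays of naive S read 5.93, 5.93, 6.18 and 5.75, and those of naive K read 5.05, 5.40, 6.37 and 5.88. Naive K was thus the most variable set (SD 0.58), while naive S had an SD of 0.18.

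Both low-imatinib lines read higher. Line 1 gave 8.58, 8.13, 8.51 and 7.81, and line 2 gave 8.22, 8.41, 8.38 and 8.70. High-imatinib line 1 gave 8.32, 7.98, 8.01 and 7.92, and high-imatinib line 2 gave 8.04, 7.94, 8.11 and 7.57. None of these imatinib arrays reached down to the naive range.

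The nilotinib lines stood apart from each other. Nilotinib line 1 gave 8.01, 7.98, 7.99 and 7.79, close to the high-imatinib lines and with the smallest SD of any set (0.10). Nilotinib line 2 gave 8.76, 9.33, 9.36 and 8.90, which made it the highest set, and its arrays did not overlap those of line 1.

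**Figure D1:**
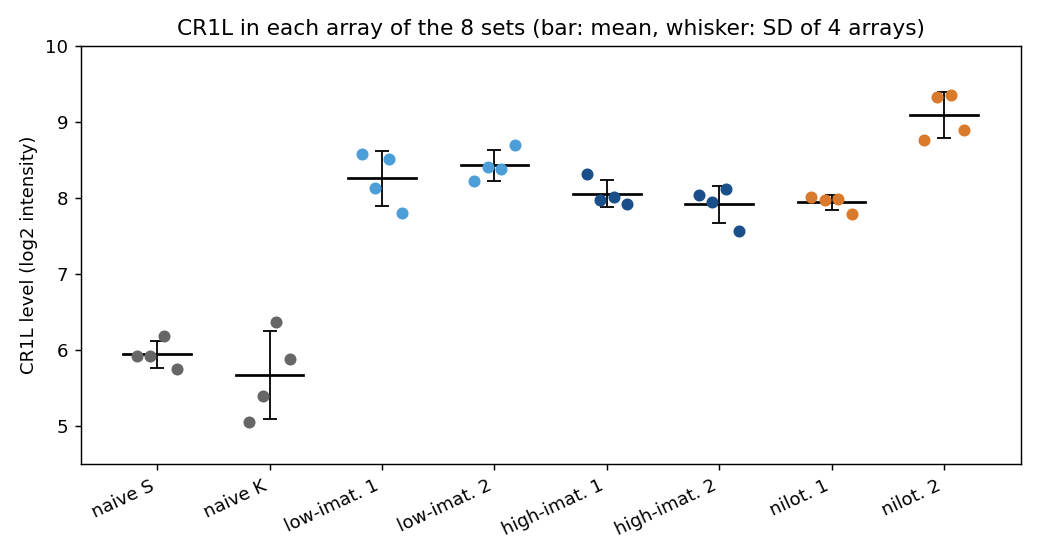
CR1L level (log2 intensity, vertical axis) in each of the 4 arrays of the 8 sets, with the set mean (bar) and the SD of its arrays (whisker). All 24 resistant arrays lie above the 8 naive arrays, with the lowest resistant array at 7.57 and the highest naive array at 6.37.

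The lowest resistant array lay 1.20 above the highest naive array on the log2 scale. All 24 resistant arrays lay above all 8 naive arrays for 475 of 14884 genes (3.19%), and, by set means, all 6 lines lay above both naive sets for 17.0% of genes and below both for 15.9%. A share of 0.0403% of genes, CR1L included, had a difference over all lines at or above that of CR1L. Ordered by set mean, CR1L ran from naive K (5.68) and naive S (5.95) to high-imatinib line 2 (7.92), nilotinib line 1 (7.94), high-imatinib line 1 (8.05), low-imatinib line 1 (8.26), low-imatinib line 2 (8.43) and nilotinib line 2 (9.09). Neighbours in this order had overlapping arrays except at 2 steps, from naive S to high-imatinib line 2 (a difference of 1.97) and from low-imatinib line 2 to nilotinib line 2 (0.66). The 5 lines below nilotinib line 2 thus followed each other without a step that separated their arrays.

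The difference between resistant and naive cells was taken on set means, with limma's pooled standard error. Over all 6 lines CR1L was 2.47 ± 0.28 higher on the log2 scale (SE, n = 6 lines against 2 naive sets), which is 5.54-fold. Among genes CR1L stood at percentile 31.3 in naive S and 22.6 in naive K, and from 79.1 to 93.9 in the lines. Both naive set means lay below the medians of the naive arrays (6.04 to 6.11), so each fold rests on a low naive signal. By resistance the difference was 2.53 ± 0.34 with low imatinib (5.79-fold), 2.17 ± 0.34 with high imatinib (4.52-fold) and 2.70 ± 0.34 with nilotinib (6.51-fold), with n = 2 lines against 2 naive sets each. These values share the same naive sets. Among the 14884 genes, CR1L ranked at place 6 from the top in the difference over all lines. In this comparison limma called 553 genes (3.72% of all tested) at an adjusted p under 0.05, 3.21% of all being higher and 0.504% lower. With quantile normalization it called 362, split into 179 higher and 183 lower in place of 478 and 75. For nilotinib alone it called 0.443%, of which 0.390% of all genes were higher and 0.0537% lower. For low and for high imatinib it called 0 genes at this threshold, with 3215 and 2266 at an unadjusted p under 0.05. Since this contrast chose CR1L, nothing is read from these shares about it.

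CR1L moved together with the main direction of variation among arrays of the same set. This direction, called the technical axis here, was computed over all genes, and CR1L was at percentile 99.6 of its absolute loadings. Within sets, CR1L and the array's score on this axis correlated at r = 0.71 over 32 arrays. This r is a description, since the arrays share 8 RNA sources and CR1L was among the genes that defined the axis. Mean scores ran from -25.1 and -20.8 in the naive sets K and S to between -2.13 and 6.09 in the imatinib lines and to 12.3 and 21.2 in the nilotinib lines, so both naive sets had lower mean scores than any line. Single arrays overlapped, since low-imatinib line 1 reached down to -15.2 and naive K up to -8.13. As the mean scores followed the groups, technical variation and a difference between naive and resistant cells cannot be told apart along this axis. Array medians over all features differed as well, at 6.04 to 6.11 in naive arrays and 5.85 to 6.04 in resistant arrays.

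With the technical axis taken out of every array, the difference over all lines was 1.82 ± 0.32, in place of 2.47. How much of this change was technical was not tested. Split by drug and dose it was 1.92 (low imatinib), 1.68 (high imatinib) and 1.86 (nilotinib). The lowest resistant array then read 7.32 and the highest naive array 6.55, so the 2 groups still did not overlap. Set means were 6.39 and 6.21 in naive S and K, 7.49 in nilotinib line 1, 7.86 in high-imatinib line 2, 8.10 in high-imatinib line 1, 8.13 and 8.31 in low-imatinib lines 1 and 2, and 8.83 in nilotinib line 2.

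**Figure D2:**
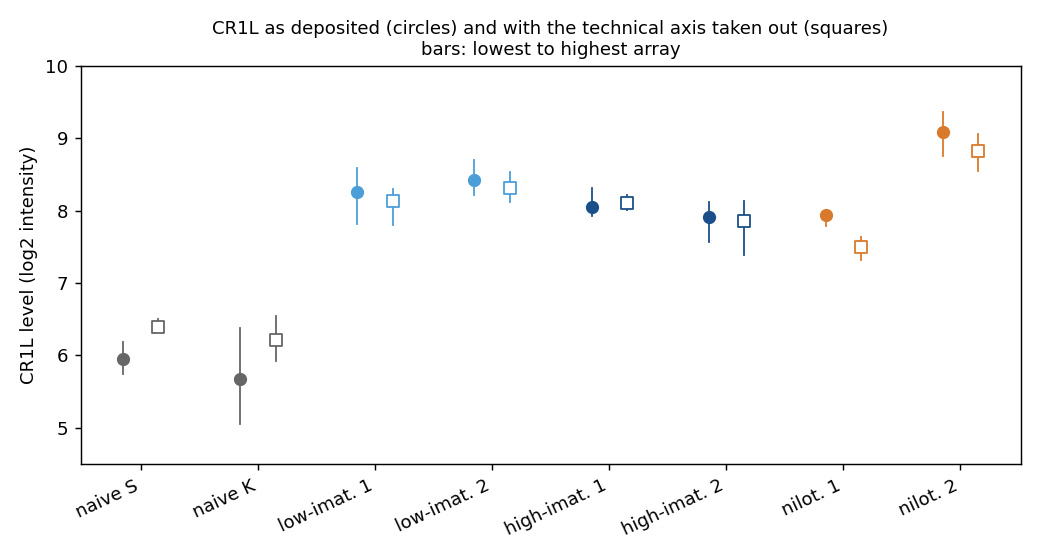
CR1L level (log2 intensity, vertical axis) per set as deposited (circles) and with the technical axis taken out (squares); bars run from the lowest to the highest of 4 arrays. The naive sets move up, to 6.39 and 6.21, and nilotinib line 1 moves down to 7.49, and no resistant array reaches the naive range.

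Whether the resistances differed from each other in CR1L was tested with limma on the set means. High-imatinib lines stood 0.36 ± 0.34 below low-imatinib lines (difference -0.36, 95% interval -1.16 to 0.45, adjusted p = 0.936 by limma). Nilotinib lines stood at 0.17 ± 0.34 against low-imatinib lines (interval -0.63 to 0.98, adjusted p = 0.913 by limma). Against high-imatinib lines the nilotinib difference was 0.53 ± 0.34 (interval -0.28 to 1.33, adjusted p = 0.748 by limma).

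None of these passed, and the intervals reach 1.16 below and 1.33 above 0 on the log2 scale (lower bound -1.16), so the resistances are not shown to be alike. In these 3 comparisons limma called 0% of all genes, with 722, 1028 and 943 genes at an unadjusted p under 0.05. Both nilotinib differences changed sign without nilotinib line 2, when they were -0.40 against low-imatinib and -0.044 against high-imatinib lines.

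Lines of the same resistance were compared on the 32 arrays, a test against technical spread only. Nilotinib line 2 was higher in CR1L than line 1 by 1.15 ± 0.19 (2.21-fold, 95% interval 0.75 to 1.54, adjusted p = 1.86e-05 by limma, n = 4 arrays each). In that comparison 27.6% of all genes were called, 11.5% higher and 16.1% lower in line 2.

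CR1L did not pass in the other 3 pairs. Low-imatinib line 2 stood at 0.17 ± 0.19 against line 1 (interval -0.23 to 0.56, adjusted p = 0.618 by limma), and high-imatinib line 2 at -0.14 ± 0.19 against line 1 (interval -0.53 to 0.26, adjusted p = 0.649 by limma). Naive K stood at -0.27 ± 0.19 against naive S (interval -0.67 to 0.13, adjusted p = 0.385 by limma). Of all genes, 18.7% were called between the low-imatinib lines (8.77% higher and 9.96% lower in line 2), 33.0% between the high-imatinib lines (19.8% and 13.2%) and 12.4% between the naive sets (5.90% higher and 6.46% lower in K).

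The genes around CR1L were read to see whether its level moved with its surroundings on chromosome 1. Between CR2 and CD46 in annotation order, CR2 and CR1L were the measured genes, and 8 measured genes were taken on each side. CR2, the complement receptor of B cells and follicular dendritic cells, had set means of 5.82 and 5.64 in naive S and K and from 5.42 to 6.04 in the resistant lines. Its difference over all lines was -0.02 ± 0.18 (adjusted p = 0.958 by limma). The ranges of CR2 in naive and resistant sets overlapped.

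Of the 17 measured neighbours, 0 passed in any of the 7 comparisons in limma, with 6 (35.3%) at an unadjusted p under 0.05 over all lines against naive, where 29.8% of all genes were under it and 3.72% passed. Their differences over all lines ran from -0.52 to 0.58 with a median of -0.17, where CR1L stood at 2.47. The largest difference among them was that of C1orf116, at 6.50 and 6.55 in the naive sets and between 6.62 and 7.95 in the lines, with nilotinib line 2 at the top as for CR1L. PLXNA2, a semaphorin receptor, had its maximum, 7.82, in high-imatinib line 1 and lay from 5.96 to 6.46 elsewhere. CD34, a surface marker of blood stem cells that lies beyond CD46, read 6.27 and 6.17 in the naive sets and from 5.65 to 6.22 in the lines.

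**Figure D3:**
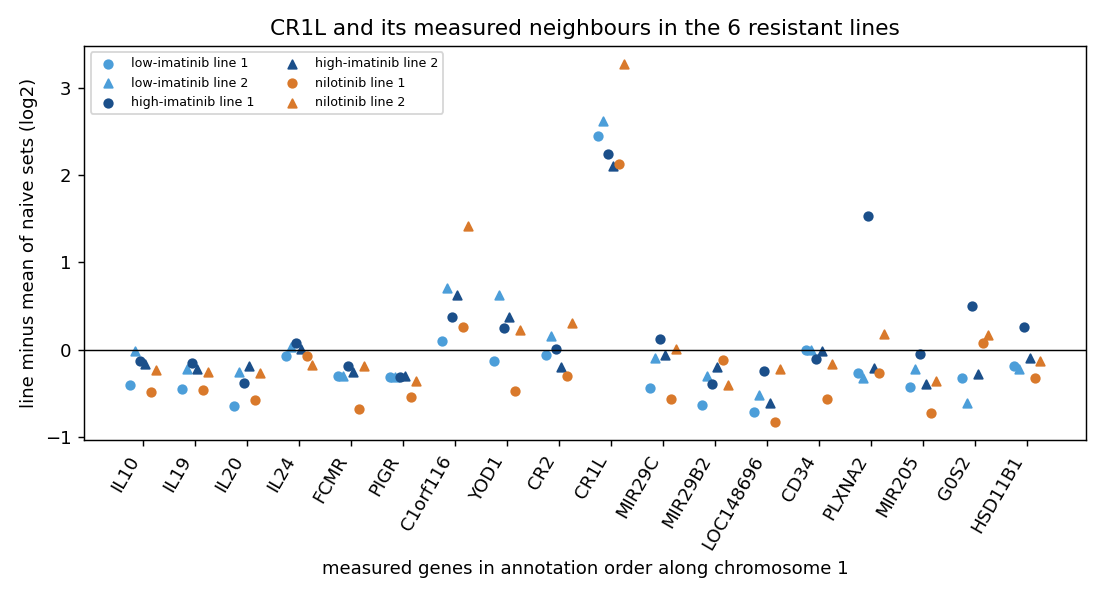
Level of CR1L and its 17 measured neighbours in each resistant line minus the mean of the naive sets (log2, vertical axis), in annotation order along chromosome 1; circles are line 1 and triangles line 2. CR1L stands between 2.11 and 3.28 in all lines, while the neighbours lie between -0.83 and 1.54 in single lines, with PLXNA2 in high-imatinib line 1 (1.54) and C1orf116 in nilotinib line 2 (1.42) the highest.

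Other complement genes were taken from a list of 57, of which 35 were measured: 19 of 28 components, 9 of 18 fluid-phase and other inhibitors, and 7 of 11 receptors. None of the 35 passed in any of the 7 comparisons between groups in the main limma fit. Of all genes, 3.72% passed over all lines, 0.443% for nilotinib against naive and 0 in each remaining comparison. With so few calls over all genes, nothing is read from this about the list. Over all lines against naive, 7 (20.0%) had an unadjusted p under 0.05, against 29.8% of all genes, and a fit of all 32 arrays with the set as random block gave 4 calls (FCN1, FCN3 and CALR lower, CLU higher), where it called 24.6% of all genes. Their median difference over all lines was -0.20, against -0.03 over all genes and -0.17 for the 17 neighbours of CR1L. A difference above 0 was seen for 8 of the 35, and for 7084 of all 14884 genes. Array medians were also lower in resistant arrays (5.85 to 6.04) than in naive arrays (6.04 to 6.11). The part of this offset in the list's median was not tested. Medians were -0.22 for the components, -0.20 for the inhibitors and 0.19 for the receptors.

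No component passed in any comparison between groups in the main fit. FCN1, a pattern recognition ficolin, stood at -0.46 ± 0.12 (adjusted p = 0.075 by limma) and FCN3, another ficolin, at -0.39 ± 0.10 (adjusted p = 0.068 by limma). With quantile normalization FCN1 (-0.68) and FCN3 (-0.53) passed (adjusted p = 0.049 by limma for each), where 362 of 14884 genes were called. FCN2, the remaining ficolin, stood at -0.36 ± 0.21. C4A and C4B, near-identical copies whose features may not tell them apart, stood at -0.29 and -0.27.

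Among the inhibitors, the largest difference was that of CLU, which encodes clusterin, a chaperone that binds the forming membrane pore. CLU read 5.31 and 5.46 in the naive sets; lines 1 and 2 read 6.08 and 5.42 (low imatinib), 6.11 and 5.32 (high imatinib), and 6.82 and 6.34 (nilotinib). Both nilotinib lines lay above both naive sets, while line 2 of each imatinib dose lay between them. The difference was 0.63 ± 0.26 over all lines (adjusted p = 0.165 by limma) and 1.20 ± 0.32 in the nilotinib lines (adjusted p = 0.078 by limma). Leaving out a high-imatinib line cannot change this nilotinib difference of CLU. It changes only the standard error, which was 0.26 without line 1 and without line 2.

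VSIG4, a macrophage receptor for C3 fragments, showed the widest range of the receptors. High-imatinib line 1 read 9.80 and nilotinib line 2 read 6.94, while all other sets lay from 5.88 to 6.29. Its difference in the high-imatinib lines was 1.70 ± 1.06 (adjusted p = 0.471 by limma), since line 2 stood at 6.02. With high-imatinib line 1 as the only set of its group, the difference was 3.59.

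C3 and C3AR1, named after their values were seen, were high in the same pair of lines as VSIG4. C3, the central component of the cascade, read 7.46 in high-imatinib line 1 and 7.70 in nilotinib line 2, and from 5.55 to 6.61 elsewhere. C3AR1, the receptor of the C3a fragment, read 6.57 and 6.34 in those lines and from 4.90 to 5.41 elsewhere. Between lines of the same resistance, C3 differed by 1.90 ± 0.13 in the high-imatinib pair (lower in line 2), with the error from technical spread. In the nilotinib pair it differed by 1.66 ± 0.13 (higher in line 2). These differences are a description with no test, since C3 was named after these values were seen. Of all genes, 33.0% were called in the high-imatinib pair and 27.6% in the nilotinib pair. CR1L was among the high values in nilotinib line 2 but not in high-imatinib line 1, where it stood at 8.05, below both low-imatinib lines.

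CD93, a surface receptor first described for C1q, read 6.51 and 6.60 in naive S and K. Lines 1 and 2 gave 7.02 and 7.89 with low imatinib, 6.53 and 7.16 with high imatinib, and 6.30 and 6.48 with nilotinib. Its difference in the low-imatinib lines was 0.90 ± 0.31 (adjusted p = 0.179 by limma). CALR, the chaperone calreticulin, which also acts as a C1q receptor at the surface, read 10.8 and 10.6 in the high-imatinib lines and 11.0 to 11.6 in the other sets, a difference of -0.72 in the high-imatinib lines (adjusted p = 0.194 by limma).

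Between lines of the same resistance, some complement genes were called in every pair. Of the list's 35 measured members, 11 were called between the high-imatinib lines, 10 between the nilotinib lines, 8 between the low-imatinib lines and 2 between the naive sets, where 33.0%, 27.6%, 18.7% and 12.4% of all genes were called.

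**Figure D4:**
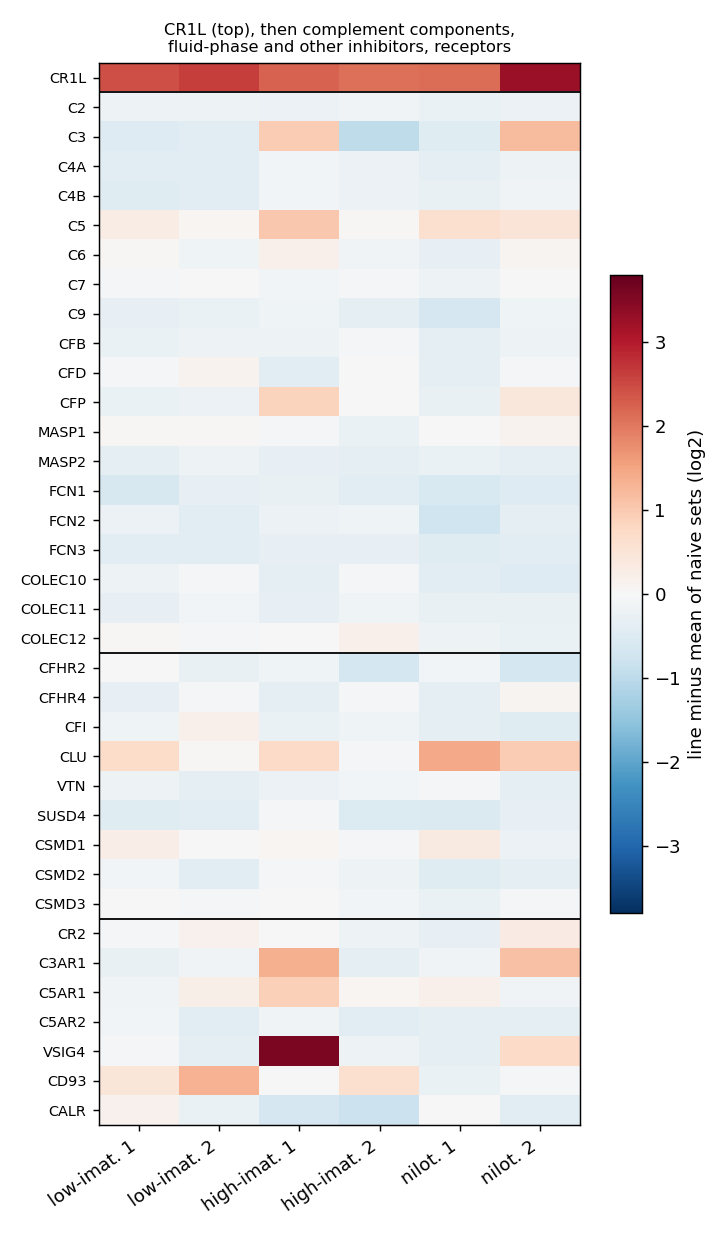
Level of CR1L (top row) and of 35 other complement genes in each resistant line minus the mean of the naive sets (colour, log2). CR1L is high in all 6 columns, while VSIG4, C3 and C3AR1 are high in high-imatinib line 1 and nilotinib line 2.

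CD55 and CD59 reach the cell surface on a glycosylphosphatidylinositol (GPI) anchor, so genes of anchor synthesis were listed too, although CD55 and CD59 themselves are not analysed here. Of 29 listed, 6 were measured, and 0 passed in any comparison in the main limma fit. Of all genes, 3.72% passed over all lines, 0.443% for nilotinib against naive and 0 in each remaining comparison. Over all lines 1 of the 6 (16.7%) had an unadjusted p under 0.05, against 29.8% of all genes. GPAA1, a subunit of the transamidase that attaches the anchor, read 7.37 and 7.49 in the naive sets and from 7.74 to 8.19 in the lines, a difference of 0.49 ± 0.12 (adjusted p = 0.066 by limma). Without high-imatinib line 1 the difference of GPAA1 was 0.54. GPAA1 passed in the fit of 32 arrays with the set as random block (adjusted p = 0.042 by limma), where 24.6% of all genes were called. PGAP1, an enzyme that remodels the anchor lipid, stood at 0.53 ± 0.44 in the low-imatinib lines. Between resistances the largest were PGAP1 at -0.36 (high against low imatinib), PGAP2 at 0.41 (nilotinib against low imatinib) and MPPE1 at 0.31 (nilotinib against high imatinib), the latter pair also encoding anchor remodelling factors.

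Markers of other cell types that carry complement receptors were read in the same sets, and their part in the CR1L values was not tested. Mean log2 levels ran from 5.68 to 6.09 for 2 measured B cell markers of 6, from 5.86 to 6.34 for 6 monocyte and granulocyte markers of 9, from 6.37 to 6.87 for 3 T and NK cell markers of 5, and from 5.34 to 6.10 for PECAM1, the measured one of the stromal and endothelial list of 5. Within the monocyte list LYZ, which encodes lysozyme, read 7.55 and 7.95 in the naive sets and from 5.90 to 8.35 in the lines, with its maximum in nilotinib line 2. The erythroid list, with 5 of 12 measured, had means of 7.20 to 7.42 in naive sets and 7.42 to 8.02 in the lines. GATA1, the erythroid master regulator that marks K-562, read from 9.12 to 9.71 in all sets, and AHSP, a late hemoglobin chaperone, from 5.14 to 5.77. TAL1, an erythroid transcription factor, read 6.40 and 6.58 in the naive sets and from 7.07 to 7.89 in the lines, and rose by 1.12 ± 0.19 over all lines (adjusted p = 0.038 by limma). EPOR, the erythropoietin receptor, stood at 0.67 ± 0.22 and KLF1, an erythroid transcription factor, at 0.65 ± 0.28, and neither passed. Every line read higher in TAL1 than both naive sets, and its part in the CR1L values was not tested.

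Genes with a pattern like that of CR1L were ranked by Pearson correlation over the 8 set means, among 3498 genes whose set means span at least 1 on the log2 scale. The points share 2 naive sets and a common step from naive to resistant, so r is a description of 8 points. An r of at least 0.9 was reached by 129 of the 3498 genes. Of the genes named here, KIF20A, a kinesin of cell division, had the highest r (0.98, and 0.85 over the 6 lines alone). It read 7.53 and 7.34 in naive S and K and from 8.16 to 8.64 in the lines, with nilotinib line 2 the highest as for CR1L.

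The mitotic kinase AURKA followed with r = 0.98, CAAP1, an apoptosis regulator, with 0.98, and PDCD4, a translation inhibitor, with 0.97. ZNF75A, a zinc finger gene, TMEM38B, an intracellular cation channel, and CASP8AP2, a binding partner of caspase 8, each had r = 0.97. Over the 6 lines alone, r for these 7 genes ran from 0.58 for ZNF75A to 0.86 for CASP8AP2. The lowest correlations were those of AFP, which encodes alpha-fetoprotein (r = -0.98), and of the long RNAs LINC00261 (-0.97) and LINC01300 (-0.97). AFP read 6.11 and 6.16 in the naive sets and from 4.44 to 4.85 in the lines, with nilotinib line 2 the lowest.

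The 7 genes had differences over all lines between 0.75 (CASP8AP2) and 1.60 (ZNF75A), where CR1L, which was chosen for this difference, stood at 2.47. Their absolute loadings on the technical axis ran from percentile 64.2 (CASP8AP2) to 97.7 (KIF20A), with PDCD4 at 68.8, AURKA at 69.7 and CR1L at 99.6. With the axis taken out, their r with CR1L ran from 0.92 (KIF20A) to 0.98 (CAAP1). These genes were chosen for a high r over the same sets, and the step of CR1L from naive to resistant remained. Nothing is therefore read from these r about the axis.

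**Figure D5:**
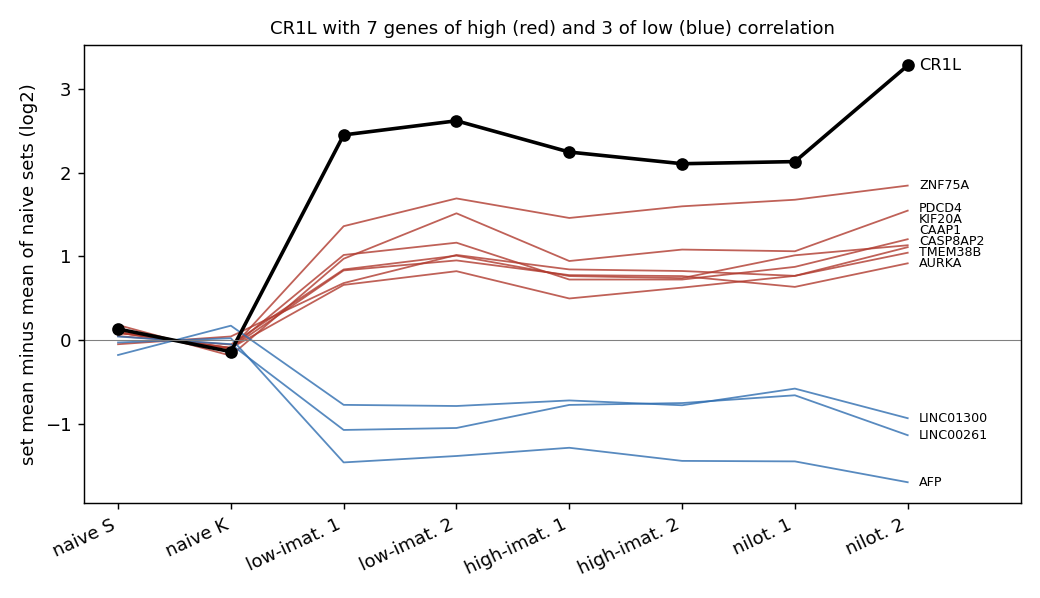
Set mean minus the mean of the naive sets (log2, vertical axis) for CR1L (black), 7 of the 8 genes with the highest (red) and the 3 with the lowest (blue) correlation to it; lines join the sets of 1 gene and imply no order. CR1L runs from -0.14 in naive K to 3.28 in nilotinib line 2.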

How the data were processed

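Gene expression was measured on 32 arrays of K-562 RNA (per the labels' protocols, 100 ng labelled per array). The authors deposited 1 value per feature and array on what reads as a log2 scale (1.24 to 14.2); the base is inferred. Transcriptome Analysis Console 4.0 is named in the submitters' processing notes. How arrays were normalized is not stated there, and another scaling would shift array medians.

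Of 53617 features, 16098 carry 1 symbol and 37519 are unnamed here. The feature with the highest mean stood for a gene, leaving 14884 genes. The 4 arrays of a set were averaged, and the 8 means, from all 4 groups, were fitted in limma 3.58.1 under R 4.3.3 (4 residual degrees of freedom), with Benjamini-Hochberg adjustment over all genes and a threshold of 0.05. Errors after ± are limma standard errors, and intervals are at 95%. Lines of 1 group were compared on 32 arrays (24 residual degrees of freedom). The scripts were tested on simulated data.

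The members and lists were chosen with earlier results of these data known. Named genes were CR1L, per list and comparison up to 4 passing genes and the largest change, the 8 most and 3 least similar genes, and 8 neighbours per side; others were named after their values were seen. Of the similar genes, 1 is not reported here. Likeness for members not measured could not be given. Alternatives changed the features used, normalization, dim genes (40% left out), the set as a random block, the groups in the fit, the technical axis and the sets included. Names and the promoter come from RefSeq tables of GRCh38.p14, which matched all 16098 named features by gene identifier; no probe sequences were used. The number of arrays limits the precision.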

Additional observations from a re-analysis of the deposited data

Results flagged for a closer look

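Among 27 groups of values checked for 1 value far from the rest, 2 held one, and chance alone gives about 1 in 20. In nilotinib line 1 the CR1L array at 7.79 stood apart from the other 3 arrays, which lay between 7.98 and 8.01 (gap 0.865 of the range). Across the 6 resistant lines, VSIG4 stood apart at 9.80 in high-imatinib line 1 (gap 0.729 of the range).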

How the results depend on the processing

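CR1L was higher in resistant than in naive sets under all 14 alternatives to each of the 4 comparisons. This is a description, since the contrast chose CR1L and several alternatives can change only the error of the difference. For nilotinib the difference moved by more than the spread between sets when a nilotinib line was left out. With the technical axis taken out it did so in each comparison (1.82 over all lines, 1.92 low imatinib, 1.68 high imatinib, 1.86 nilotinib). Leaving out each set gave 2.28 to 2.66, 2.40 to 2.67, 2.04 to 2.31 and 2.13 to 3.28 in the same order. Between resistances CR1L passed under no alternative (adjusted p from 0.514 to 1.00 by limma); nilotinib against low imatinib changed sign with the technical axis taken out (-0.060), and left-out sets gave -0.40 to 0.74, -0.044 to 1.10 for nilotinib against high imatinib and -0.44 to -0.27 for high against low imatinib. The cause was not tested. Low-imatinib line 2 against line 1 ran from -0.072 to 0.35 with 1 array number left out, high-imatinib line 2 against line 1 from -0.22 to -0.069 and naive K against S from -0.42 to -0.067, none past the threshold; nilotinib line 2 against line 1 kept its call (1.07 to 1.28). The labels do not say whether line numbers pair lines across resistances. Correlations of line 2 deviations between resistances were 0.14, 0.19 and -0.20, which cannot settle how the lines were derived. With the line number as a replicate block the differences were -0.36, 0.17 and 0.53 and 0 genes were called. An arm left with 1 set is assumed to vary like the other groups.

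Counts of called genes moved much more than CR1L. Over all lines the 553 became 362 with quantile normalization (179 higher and 183 lower in place of 478 and 75), 12 with the technical axis taken out and 3660 with the set as a random block; without naive S or either low-imatinib line they were 0, without naive K 2, without nilotinib line 1 130, and without high-imatinib line 2 or 1 they were 923 and 1742. For nilotinib the 66 became 1, 0 and 3696 under the same 3 settings, 0 with only the groups compared, 0 without naive S or either low-imatinib line, 1 without naive K, 6 without nilotinib line 1 and 1187 without either high-imatinib line. For low imatinib the 0 became 4 without dim genes, 2672 with the random block and 1990 with only the groups compared, and up to 705 without a high-imatinib line. For high imatinib the 0 became 1 with quantile normalization, 1679 with the random block, 1 with only the groups compared and up to 125 without line 2. Between resistances the random block gave 413, 550 and 201, and left-out sets up to 270, 28 and 35. For naive K against S the 1840 became 2990 with quantile normalization and 582 to 1597 with 1 array number left out. Of the 35 measured complement genes, the random block called 4, 4, 2 and 4 against naive (all, low, high, nilotinib). Of all 14884 genes it called 3660, 2672, 1679 and 3696 in these comparisons. Between resistances it called 2 of the 35 in each comparison, where 413, 550 and 201 of all genes were called. Quantile normalization called 2 of the 35 over all lines, FCN1 and FCN3, where it called 362 of all genes.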
